A study of Bos taurus with 30 samples.

Results

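The let-7 family was followed in anterior pituitary tissue from 30 bull calves of the Holstein-Friesian breed. Its 9 mature miRNAs were taken from the deposited table by name (bta-let-7a-5p, bta-let-7b, bta-let-7c, bta-let-7d, bta-let-7e, bta-let-7f, bta-let-7g, bta-let-7i and bta-miR-98, written below without the species prefix), out of 1030 mature bovine miRNAs, and each of the 9 was above 0 in every library. The choice was by name and not by a measured value, although earlier results of these data were known. The HI group was 15 calves offered 1.5 kg of milk replacer (10 litres) per day with ad libitum concentrate, and the MOD group was 15 calves whose daily milk replacer was 0.5 kg in 4 litres, with 0.5 kg of concentrate. Both diets ran from 2 to 12 weeks of age, and the gland was collected at 12 weeks. All calves were of 1 breed and sex and came from several farms, and they were allotted to diets in blocks by age, body weight, sire and farm. Small RNA was sequenced from a portion of each calf's anterior pituitary with 1 library per calf. The spread between libraries of a diet is thus a spread between calves. It also holds differences of tissue portion and library preparation, which cannot be told apart from those between animals. In such bulk tissue, fewer cells of a type and less RNA per cell cannot be told apart.

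The let-7 miRNAs are short RNAs that bind messenger RNAs through a seed, the stretch near their start that pairs with the target, and lower the output of those messages. Members of the family share the seed and are therefore thought to act on overlapping targets, of which growth and proliferation genes such as HMGA2, MYC, the RAS genes and LIN28 are the best known. The RNA-binding proteins LIN28A and LIN28B block the maturation of let-7 precursors, and let-7 in turn represses LIN28. Family levels are low in stem cells and high in differentiated tissue. The LIN28 and let-7 pair is also known for its part in growth and in the timing of puberty, and variants near LIN28B are linked to age at menarche in women. The pituitary is an endocrine gland whose differentiated hormone cells make growth hormone, prolactin, the gonadotropins and other hormones. The comparison of HI and MOD calves asks whether the plane of nutrition in early life changed the level of these miRNAs in the gland that releases the gonadotropins.

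In the RefSeq table of the bovine genome, 12 hairpin genes carry the names of the 9 members. There are 3 for let-7a, 2 for let-7f and 1 for each of the others. Most stand next to other miRNA genes. The genes of let-7a-1, let-7f-1 and let-7d are adjacent, and let-7a-3 is adjacent to let-7b. The gene of let-7a-2 lies beside miR-100, let-7c beside miR-99a, and let-7e between miR-99b and miR-125a. The hairpins of miR-98 and let-7f-2 are neighbours inside HUWE1, a gene for a ubiquitin ligase, and let-7g lies inside WDR82, a gene for a subunit of a histone methyltransferase complex. The gene of let-7i has no miRNA gene near it. Members of the family thus come from several places in the genome, and the miR-99, miR-100 and miR-125 genes beside them serve as a comparison for the same loci.

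Values are counts per 1e+06 reads on miRNAs (CPM), scaled by the authors with TMM factors, which correct the library totals for differences in composition. Libraries held 6650492 to 11086524 reads on miRNAs, and each value of the least abundant member rested on at least 3533 reads. A read covers a whole mature miRNA, so levels are not divided by length. The endocrine markers miR-375 and miR-7 summed to 119220 to 212047 CPM in HI and to 134487 to 209427 CPM in MOD libraries, and both are known to be abundant in the pituitary. The number in each calf's label divides the libraries into 2 sets that stand apart, namely the 9 with the highest numbers (HI 5, MOD 4) and the 21 with lower numbers (HI 10, MOD 11). What the label numbers stand for is not given in the labels. That boundary was drawn in earlier work on these libraries from miR-99b, so levels on either side of it are described without a test, and the diet differences of the members within each set are given after it.

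The 9 members together made up 73862 ± 4606 CPM (SD, n = 30), or 7.40% ± 0.653 of the reads on miRNAs. Most of this came from let-7f, let-7i and let-7a-5p, which held 77.7% ± 0.854 of the family (SD, n = 30), with a range of 75.9% to 79.5% over the calves. The order of levels began with let-7f at 20760 ± 1227 CPM, which ranked 13 among all miRNAs of the table. It was followed by let-7i at 19523 ± 1881 CPM and let-7a-5p at 17100 ± 1312 CPM (SD, n = 30 each). A second tier was formed by let-7g at 4901 ± 314 CPM, let-7c at 3174 ± 521 CPM, let-7b at 2934 ± 281 CPM, let-7e at 2531 ± 192 CPM and miR-98 at 2414 ± 286 CPM. The lowest was let-7d at 523.9 ± 46.2 CPM, rank 91 of all miRNAs. This order is one of reads, since libraries do not capture all miRNAs equally well. The values of let-7f and let-7a-5p held fractions of reads, and whether they are shares or means over several hairpins is not given. Their place in the order and the family shares depend on that.

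Neighbours in that order were compared within each library. The step from let-7a-5p down to let-7g was 1.80 ± 0.143 on the log2 scale (SD, n = 30) and went the same way in 30 of 30 calves, as did the step of 2.20 ± 0.158 from miR-98 to let-7d. Between let-7i and let-7a-5p the difference was only 0.19 ± 0.0970, yet let-7i was the higher of the pair in 30 of 30 libraries. The step from let-7g to let-7c was 0.64 ± 0.264 (29 of 30) and that from let-7b to let-7e was 0.21 ± 0.143 (28 of 30). The other 3 pairs differed by less than 1 SD between calves. The log2 difference was 0.093 ± 0.126 between let-7f and let-7i, with let-7f higher in 24 of 30 libraries. It was 0.10 ± 0.153 between let-7c and let-7b (22 of 30). Between let-7e and miR-98 it was 0.074 ± 0.165, and let-7e was higher in 19 of 30 libraries. These were 9 of the 9 libraries with the highest label numbers and 10 of the other 21.

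**Figure D1:**
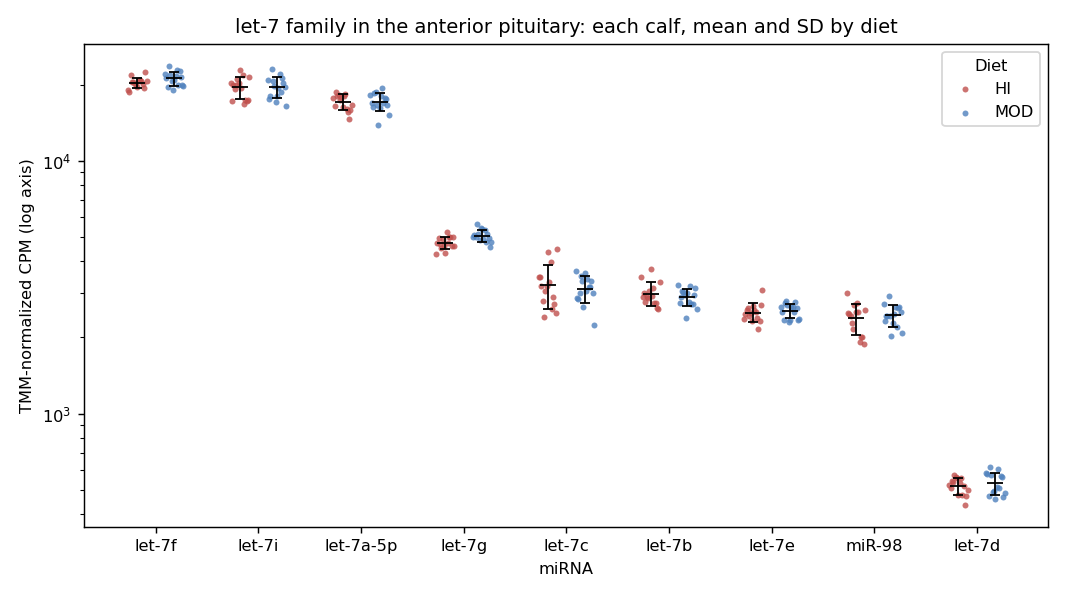
Level of each let-7 family member in every calf by diet, as TMM-normalized CPM on a log axis, ordered by mean level. Points are calves (15 HI and 15 MOD), and bars give the mean and SD. The members fall into a top tier of let-7f, let-7i and let-7a-5p, a middle tier of 5 members, and let-7d at 523.9 CPM. The diets overlap in each member, as they do in each of the 419 miRNAs tested.

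Between the diets, 0 of 9 members passed FDR < 0.1 in limma with Benjamini-Hochberg adjustment, against 3.58% of all 419 miRNAs tested (15 miRNAs). At an unadjusted p under 0.05 there was 1 member, let-7g, against 12.6% of all miRNAs. In edgeR's quasi-likelihood test on reads recovered from the deposited values, 0 of 9 members passed FDR < 0.1 (background 4.77%) and 1 had an unadjusted p under 0.05 (background 13.4%). In DESeq2's Wald test on the same reads, 1 of 9 passed (background 5.73%), again let-7g. By that test 2 members, let-7g and let-7f, had an unadjusted p under 0.05 (background 13.1%). The fold changes were small and their intervals narrow. The 95% intervals of the 9 ran from 0.884-fold at the lowest (miR-98) to 1.15-fold at the highest (let-7c), so the 1.5-fold change that the study set as its threshold lay outside each of them. The median log2 fold change (HI against MOD) was -0.024 over the members and 0.016 over all 419 miRNAs, and 2 members lay above 0 and 7 below. That tally depended on the scaling, since with libraries scaled to total reads 8 members lay above 0 and 1, let-7g, below, and the median of all 419 was 0.071. Of all 419 miRNAs, 230 (54.9%) lay above 0 with the deposited scaling.

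The member with the lowest p was let-7g, whose hairpin lies in WDR82. Its level ran from 4284 to 5208 CPM in HI calves (median 4725) and from 4574 to 5604 CPM in MOD calves (median 4994). The ranges overlapped, but 4 of 15 HI calves exceeded the median MOD calf, 3 lay below the lowest MOD calf, and 4 MOD calves lay above the highest HI calf. The means were 4742 ± 269 CPM in HI and 5061 ± 278 CPM in MOD (SD, n = 15 each). HI calves were at 0.937-fold of MOD (95% interval 0.893 to 0.983, log2 fold change -0.094, standard error 0.0340), with p = 0.00962 and FDR = 0.183 from limma, so let-7g did not pass FDR < 0.1. Its direction was the same within the 21 libraries (-0.10 on the log2 scale) and within the 9 (-0.077). DESeq2's test put let-7g past the threshold (FDR = 0.0569, log2 fold change -0.10). Over the other alternatives, including those that left out 1 calf, its FDR ran from 0.114 to 0.902.

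The members of the let-7a-1, let-7f-1 and let-7d locus showed no difference between diets that passed the test. The most abundant member, let-7f, ran from 18639 to 22384 CPM in HI calves (median 20423) and from 19130 to 23734 CPM in MOD calves (median 21178). Only 2 of 15 HI calves exceeded the median MOD calf, and the fold change was 0.962 (95% interval 0.917 to 1.01, FDR = 0.608 from limma). The level of let-7a-5p, which 3 hairpins can give, ran from 14648 to 18773 CPM in HI calves (median 17407) and from 13854 to 19401 CPM in MOD calves (median 16949). Of the 15 HI calves 8 exceeded the median MOD calf, at a fold change of 0.998 (95% interval 0.938 to 1.06, FDR = 0.984). For let-7d the range was 435.5 to 570.3 CPM in HI calves (median 524.1) and 460.2 to 612.9 CPM in MOD calves (median 513.0). A total of 5 MOD calves lay above the highest HI calf, but the medians were close and the fold change was 0.975 (95% interval 0.909 to 1.05, FDR = 0.873).

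Neighbouring let-7a-3, let-7b was at 2586 to 3741 CPM in HI calves (median 2903) and at 2395 to 3234 CPM in MOD calves (median 2934). Its mean was higher in HI calves at a fold change of 1.03 (95% interval 0.959 to 1.11, FDR = 0.873 from limma), although 6 of 15 HI calves exceeded the median MOD calf. The highest value, 3741 CPM, belonged to HI calf AP37840. The widest spread of the family was that of let-7c, the partner of miR-99a, with a coefficient of variation of 16.4% over the 30 calves against 5.91% for let-7f. It ran from 2406 to 4493 CPM in HI calves (median 3194) and from 2250 to 3667 CPM in MOD calves (median 3155). The highest MOD calf was exceeded by 3 HI calves, and the fold change was 1.02 (95% interval 0.909 to 1.15, FDR = 0.935).

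From the locus shared with miR-99b and miR-125a, let-7e ran from 2168 to 3094 CPM in HI calves (median 2505) and from 2309 to 2785 CPM in MOD calves (median 2605). The HI range held the MOD range within it. The fold change was 0.983 (95% interval 0.926 to 1.04, FDR = 0.920 from limma). The HUWE1 hairpin miR-98 was at 1892 to 2999 CPM in HI calves (median 2476) and at 2018 to 2917 CPM in MOD calves (median 2438). Although 4 HI calves lay below the lowest MOD calf, 8 of 15 exceeded the median MOD calf, and the fold change was 0.968 (95% interval 0.884 to 1.06, FDR = 0.873). Levels of let-7i ran from 16753 to 22879 CPM in HI calves (median 19951) and from 16523 to 23167 CPM in MOD calves (median 19639), with near identical ranges. Its fold change was 0.998 (95% interval 0.926 to 1.07, FDR = 0.984).

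**Figure D2:**
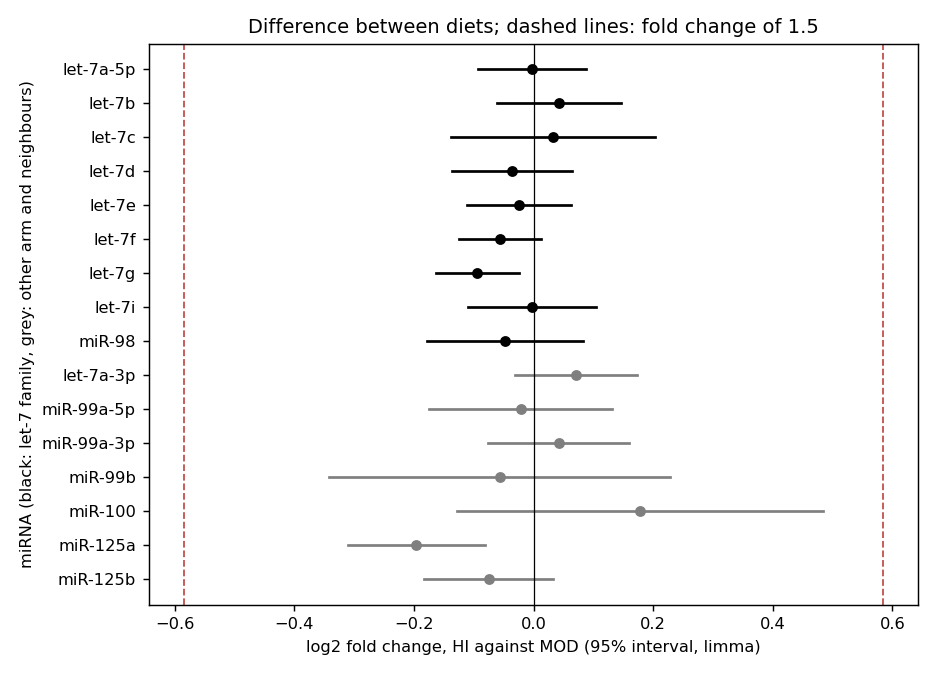
Difference between diets for the 9 let-7 family members (black) and for let-7a-3p and the miRNAs of neighbouring genes (grey), as the limma log2 fold change of HI against MOD with its 95% interval. Each interval lies inside the dashed lines at a fold change of 1.5, and among the black intervals only that of let-7g leaves out 0.

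The summed level ran from 66073 to 78548 CPM in HI calves, at a mean of 73287 ± 3857 CPM, and from 65394 to 82911 CPM in MOD calves, at a mean of 74436 ± 5325 CPM (SD, n = 15 each). Within that sum, let-7f held 27.8% ± 1.70 in HI and 28.5% ± 0.748 in MOD calves. The share of let-7i was 26.6% ± 1.49 in HI and 26.2% ± 0.921 in MOD. For let-7a-5p it was 23.3% ± 1.05 in HI and 23.0% ± 0.705 in MOD. The share of let-7g was 6.49% ± 0.555 in HI and 6.82% ± 0.530 in MOD calves. Each of these 4 shares differed between the diets by less than 1 SD between calves. With every library divided by its own family sum and the whole table fitted again, 0 of 9 members passed FDR < 0.1 in limma, against 10 of all 419 miRNAs. The lowest unadjusted limma p of a member was 0.117 (let-7g).

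The opposite arm of the let-7a hairpins, let-7a-3p, was at 62.9 to 87.6 CPM in HI calves (median 76.4) and at 64.8 to 79.8 CPM in MOD calves (median 72.2). There were 230.3 ± 21.1 reads of let-7a-5p per read of let-7a-3p (SD, n = 9) in the libraries with the 9 highest label numbers and 235.7 ± 21.1 (SD, n = 21) in the others. This ratio depends on how reads on several hairpins were counted, which is not given. The fold change of let-7a-3p was 1.05 (95% interval 0.979 to 1.13, FDR = 0.708 from limma), and 11 of 15 HI calves exceeded the median MOD calf.

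Of 7 miRNAs from neighbouring genes, 1 passed FDR < 0.1 between diets (background 3.58%). This was miR-125a, which belongs to the family of lin-4, the other classic developmental timing miRNA. It ran from 6970 to 11061 CPM in HI calves (median 9437) and from 9251 to 12743 CPM in MOD calves (median 10497). Only 1 of 15 HI calves exceeded the median MOD calf. HI calves were at 0.873-fold of MOD, a log2 fold change of -0.20 with a standard error of 0.0561 (limma FDR = 0.0468). It was -0.21 within the 21 libraries with lower label numbers and -0.21 within the other 9, at FDR of 0.0655 and 0.736. The call held in each of the 30 fits that left out 1 calf (FDR 0.0285 to 0.0953), but not with libraries scaled to total reads (FDR = 0.220), to the upper quartile (FDR = 0.165) or to the let-7 family sum (FDR = 0.323). The other 6 did not pass. Of these, miR-99b averaged 5611 ± 1577 CPM for HI against 5911 ± 1999 CPM for MOD, and miR-100 averaged 1432 ± 421 CPM for HI against 1282 ± 445 CPM for MOD (SD, n = 15 each). The remaining log2 fold changes were -0.022 for miR-99a-5p, 0.042 for miR-99a-3p, -0.075 for miR-125b and 0.082 for miR-2443, a neighbour of let-7b.

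Since let-7e and miR-125a come from adjacent hairpins, their ratio within a library was compared, a comparison chosen after the values were seen and free of the scaling of libraries. There were 2.61 to 4.65 reads of miR-125a per read of let-7e in HI calves (median 3.80) and 3.32 to 5.52 in MOD calves (median 4.12), with 12 of 15 HI calves below the MOD median. The log2 ratio was lower in HI calves by 0.17 (two-sided permutation test of 1e+05 resamples, p = 0.0232, and 0.0695 adjusted over the 3 ratios at this locus). It fell by 0.15 within the 21 libraries (permutation p = 0.0312) and by 0.27 within the 9 (exact permutation test, p = 0.111). When single calves were omitted the permutation p, not adjusted over the 3 ratios, ran from 0.00912 to 0.0479, the latter without MOD calf AP97854. As the ratio uses the miR-125a values above, it is not independent of the miR-125a difference. For the ratio of miR-99b to let-7e the log2 difference between diets was -0.032 (permutation p = 0.844), and for that of miR-125a to miR-99b it was -0.14 (permutation p = 0.264). Within the 21 libraries the difference for miR-125a to miR-99b was -0.16 (permutation p = 0.0198), and within the 9 it was 0.041 (exact permutation p = 0.746). For miR-99b to let-7e these were 0.0026 (permutation p = 0.970) and -0.31 (exact permutation p = 0.175).

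**Figure D3:**
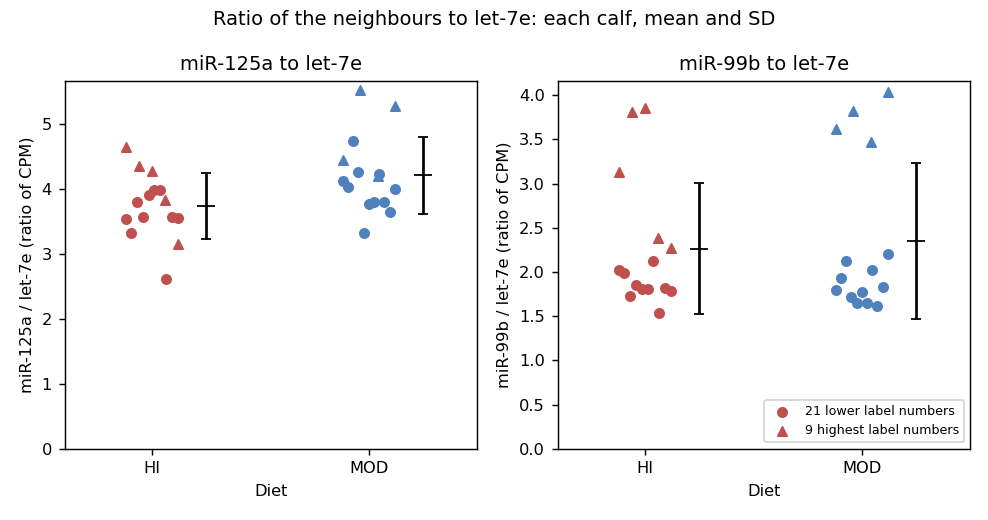
Ratio of CPM of miR-125a (left) and miR-99b (right) to let-7e in each calf by diet, with circles for the 21 lower label numbers, triangles for the 9 highest, and the mean and SD beside them. HI calves lie lower for miR-125a (medians 3.80 and 4.12), while miR-99b splits by label number in both diets.

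Of the miRNAs beside the family, miR-99b and miR-100 did not overlap between the sets of label numbers. Levels of miR-99b were 6407 to 9694 CPM among the 9 highest label numbers and 4116 to 5185 CPM among the 21 lower ones, a fold difference of 1.75 with no overlap. Levels of miR-100, the neighbour of let-7a-2, were 1580 to 2276 CPM in the 9 and 849.1 to 1468 CPM in the 21, 1.78-fold higher and again without overlap. By contrast let-7e, whose hairpin lies beside that of miR-99b, was at 2168 to 3094 CPM in the 9 (median 2369) and at 2316 to 2785 CPM in the 21 (median 2559), a fold difference of 0.970. The number of miR-99b reads per let-7e read was therefore 3.38 ± 0.648 (SD, n = 9) in the 9 and 1.85 ± 0.18 (SD, n = 21) in the 21, and the ranges of 2.27 to 4.03 and 1.54 to 2.21 did not overlap. Each of the 9 libraries also lay above the median of the 21 in miR-125b, whose mean was 6215 ± 472 CPM in these 9 and 5427 ± 420 CPM in the 21 (SD). Smaller differences were those of miR-99a-5p (log2 difference 0.26), miR-125a (0.17) and miR-99a-3p (-0.035).

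None of the 9 members was without overlap between these sets, against 1.19% of all miRNAs tested. Of the members, 8 were lower in the 9 libraries and 1, let-7g, was higher, whereas of all 419 miRNAs 221 were lower and 198 higher. The largest difference was that of miR-98, whose mean was 2132 ± 238 CPM in the 9 and 2535 ± 212 CPM in the 21 (SD), with 6 of the 9 libraries below the lowest of the 21. Next came let-7a-5p at 13854 to 16639 CPM (median 15930) against 16295 to 19401 CPM (median 17886), where 7 of the 9 lay below the lowest of the 21. The values of let-7d were 480.4 ± 23.8 CPM against 542.6 ± 40.7 CPM, and those of let-7i were 17957 ± 1594 CPM against 20194 ± 1593 CPM. Little separated the sets in let-7f (fold 0.978) and let-7g (fold 1.02). The ratio of let-7f to let-7a-5p accordingly moved from 1.18 ± 0.0527 (SD, n = 21) to 1.31 ± 0.0557 (SD, n = 9), with all 9 libraries above the median of the 21 and 7 above their maximum. Summed levels of the endocrine markers miR-375 and miR-7 also differed between the sets, at 191360 ± 17667 CPM in the 9 against 151018 ± 17757 CPM in the 21. The summed neural markers, 2 of 5 of them abundant enough to be tested, were at 595.9 ± 150.2 CPM in the 9 against 454.2 ± 63.2 CPM in the 21 (SD). Nearly all of that sum was miR-128, at a mean of 465.5 CPM over all libraries against 29.2 CPM for miR-9-5p. The part of either list in the differences between the sets was not tested.

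**Figure D4:**
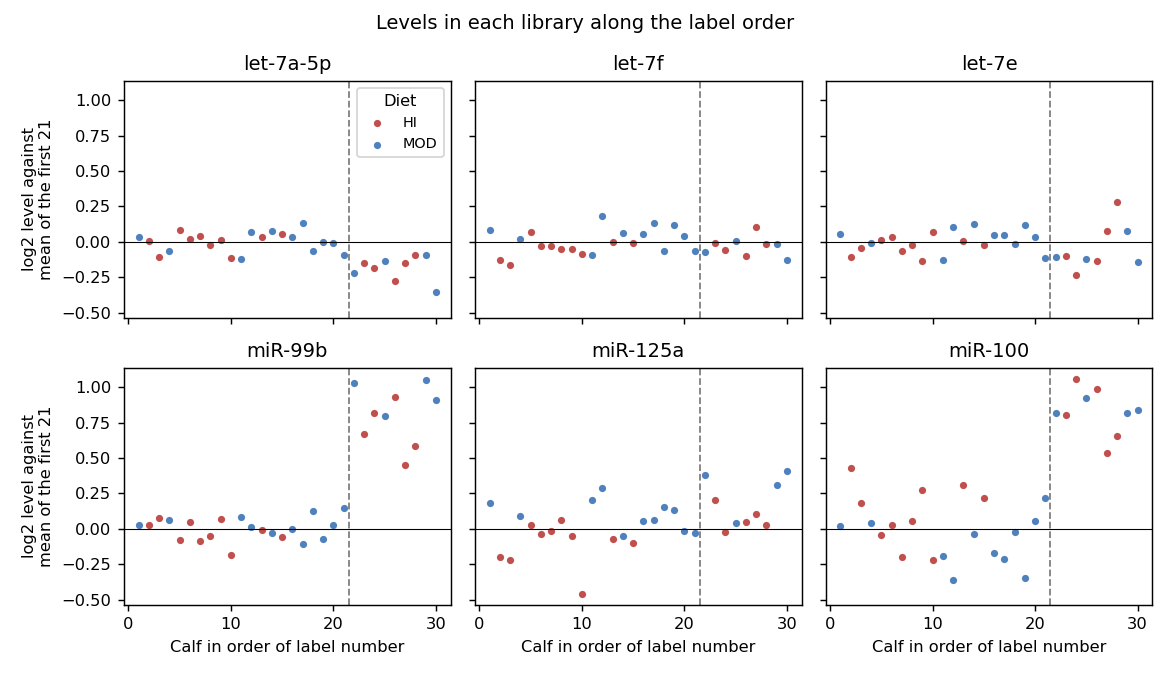
Level of 3 let-7 family members and 3 miRNAs of neighbouring genes in each calf, in order of label number, as the log2 difference from the mean of the first 21 libraries. The dashed line marks the start of the 9 highest label numbers, where miR-99b and miR-100 are 1.75-fold and 1.78-fold higher, let-7a-5p is at 0.880-fold and let-7e at 0.970-fold.

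Whether the diet difference depended on the set of label numbers was tested for each miRNA. In a limma fit with an interaction of diet and set, 0 of 9 members and 0 of 419 miRNAs passed FDR < 0.1, with 0 members and 21 miRNAs at an unadjusted p under 0.05. With the set as a block, 0 of 9 members passed for diet, against 21 of all 419 miRNAs, and the lowest FDR of a member was 0.119 (let-7g). Within the 21 libraries alone, let-7g and let-7f had an unadjusted limma p of 0.0174 and 0.0291, with FDR of 0.261 and 0.317. The log2 fold change of let-7f was -0.092 in the 21 and 0.036 in the 9 (interaction p = 0.0769, FDR = 0.786 from limma). For miR-98 it was -0.0049 in the 21 and -0.090 in the 9, and for let-7e -0.052 and 0.051. The values of the remaining members in the 21 and the 9 were 0.0019 and 0.029 for let-7a-5p, 0.058 and 0.032 for let-7b, 0.047 and 0.028 for let-7c, -0.031 and -0.0097 for let-7d, and 0.0070 and 0.011 for let-7i. Within the sets the lowest FDR of a member was that of let-7g.

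Correlations across calves were computed within the sets of label numbers for 8 pairs of miRNAs from neighbouring hairpins (7 adjacent, and let-7c with the more distant miR-125b), 16 relations in all, on log2(CPM + 1). HI and MOD calves were pooled within a set, with no adjustment for diet. The values of a library share its total, which can move 2 abundant miRNAs together. In the 21 libraries let-7d rose and fell with let-7f (r = 0.73, permutation p = 0.000200, adjusted p = 0.00320, and rho = 0.79, permutation p = 9.00e-05, adjusted p = 0.00144), and r was 0.73 without the 2 libraries farthest from the median of let-7d. The third miRNA of that locus, let-7a-5p, did so too (r = 0.71 with let-7f, permutation p = 0.000440, adjusted p = 0.00352, and rho = 0.73, permutation p = 0.000210, adjusted p = 0.00168), with r = 0.66 without its 2 farthest libraries. In the 9 libraries r was 0.72 for let-7a-5p with let-7f (exact permutation p = 0.0301, adjusted p = 0.0964). Its r fell to 0.35 without the 2 farthest, so there r rests largely on those libraries, while rho was 0.68 (exact permutation p = 0.0503, adjusted p = 0.161). For let-7d with let-7f r was -0.086 (exact permutation p = 0.825), or -0.59 without the 2 farthest. With let-7a-5p, let-7b had r = 0.83 in the 9 libraries (exact permutation p = 0.00561, adjusted p = 0.0299, and rho = 0.83, adjusted p = 0.0441), or 0.72 without the 2 farthest. In the 21 libraries this pair had r = 0.016 (permutation p = 0.947) and rho = 0.27, and r = 0.41 without the 2 farthest libraries, so the value near 0 rests on those 2.

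None of the remaining pairs had an adjusted p under 0.05 by r or by rho in the 21 or the 9 libraries. In the 21 libraries let-7e had r = -0.49 with miR-99b (permutation p = 0.0244, adjusted p = 0.0964, and rho = -0.50, adjusted p = 0.0870), and r = -0.40 without the 2 farthest libraries. By this measure miR-99b ranked 393 of the 418 other miRNAs in likeness to let-7e, and miR-125a, with r = 0.14 (permutation p = 0.553), ranked 135. The same 2 correlations in the 9 libraries were -0.45 (exact permutation p = 0.232) and -0.091 (exact permutation p = 0.833), or -0.69 and 0.097 without the 2 farthest. For let-7e with miR-125a in the 21, r was 0.27 without the 2 farthest. For let-7c with miR-99a-5p r was 0.24 in the 21 libraries (permutation p = 0.299, rho = 0.29) and 0.053 in the 9 (exact permutation p = 0.893, rho = 0.45). Without the 2 libraries farthest from the median of let-7c, r of this pair was 0.44 in the 21 and 0.54 in the 9. The value near 0 in the 9 thus rests on 2 libraries. With miR-125b, let-7c had r = 0.097 in the 21 (permutation p = 0.670) and 0.22 in the 9 (exact permutation p = 0.565), or 0.17 in each without the 2 farthest. The HUWE1 neighbours miR-98 and let-7f had r = 0.11 in the 21 (permutation p = 0.642) and 0.024 in the 9 (exact permutation p = 0.952), where let-7f can also come from another locus. Without the 2 farthest libraries, r of this pair was 0.28 in the 21 and -0.20 in the 9.

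The miRNA most like each member, by Pearson r over the 21 libraries, was most often another member. As these are the highest of 418 values each, they are descriptions with no test. The diets were pooled here too, and in the 21 libraries let-7f and let-7g were both lower in HI calves (log2 fold change -0.092 and -0.10). The part of diet in these r values was not tested. The closest miRNA to let-7f was let-7g (r = 0.78, rho = 0.74), although the genes of these members are not adjacent, and let-7f was in turn the closest to both let-7g and let-7e (r = 0.72, rho = 0.71). Without the 2 libraries farthest in let-7g, r of let-7f with let-7g was 0.66. Miss by little was common here, as miR-423-5p had r = 0.77 with let-7f, and the endocrine marker miR-375 had r = 0.77 with let-7g. For let-7a-5p and let-7d the second closest was again a member, let-7f. The closest to let-7a-5p was let-7d (r = 0.74, rho = 0.64). The pair let-7b and let-7c had r = 0.67 with each other and r of 0.016 and -0.012 with let-7a-5p, the former 0.41 without the 2 libraries farthest in let-7b. Outside the family, let-7b was most like miR-19a (r = 0.83, rho = 0.64, and 0.65 without the 2 farthest libraries), a miRNA linked to cell proliferation. The closest to let-7c was miR-324 (r = 0.75, rho = 0.76), to let-7i miR-181b (r = 0.64, rho = 0.64) and to miR-98 miR-190b (r = 0.69, rho = 0.72), whose mean level was only 2.53 CPM. In the 9 libraries r was 0.81 for let-7b with miR-19a and 0.80 for let-7c with miR-324, but 0.055 for let-7f with let-7g and 0.071 for let-7i with miR-181b.

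**Figure D5:**
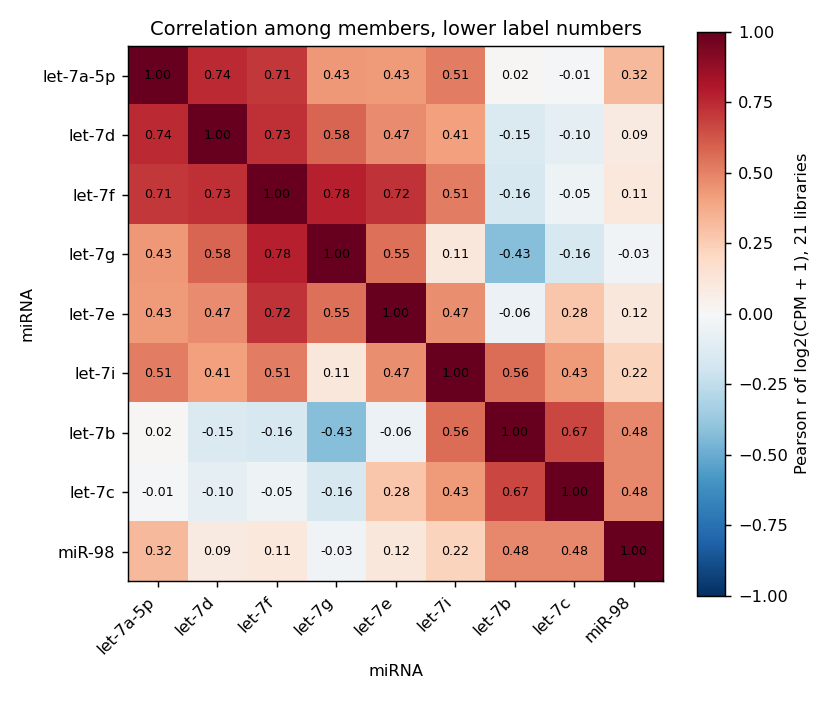
Pearson r of log2(CPM + 1) between the 9 members over the 21 libraries with lower label numbers, from blue (negative) to red (positive). A group of let-7a-5p, let-7d, let-7f, let-7g and let-7e is correlated, with r = 0.78 for let-7f with let-7g, and let-7b with let-7c has r = 0.67, while let-7b with let-7a-5p has r = 0.016, which is 0.41 without 2 libraries.

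The residual SD of a member within diets on the log2 scale ran from 0.0805 to 0.236, with a median of 0.128. The median over the 91 tested miRNAs at least as abundant as let-7d was 0.165, and 7 of the 9 members lay under it.

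Markers of other cell types were read beside these values. None of 3 red blood cell, 4 white blood cell, 4 stromal, 2 endothelial, 2 neural and 1 striated muscle markers tested passed FDR < 0.1 between diets in limma. The background was 3.58% of all 419 miRNAs. The summed red blood cell markers ran from 10578 to 24489 CPM in HI and from 15557 to 27422 CPM in MOD libraries, nearly all of it miR-486. The 3 markers did not go the same way. The fold of HI over MOD was 0.832 for miR-486 (limma p = 0.0235, FDR = 0.274), 1.46 for miR-451 (p = 0.0118, FDR = 0.190) and 1.38 for miR-144 (p = 0.00523, FDR = 0.115), whose mean was only 4.44 CPM. The study's own edgeR analysis, at FDR < 0.1 and a fold change above 1.5, did list miR-451 and miR-144 as higher in HI calves. The summed neural markers, nearly all of it miR-128, ran from 345.5 to 933.7 CPM in HI and from 384.4 to 618.2 CPM in MOD libraries. The sum of the stromal markers, led by miR-143, ran from 32071 to 183141 CPM in HI and from 33270 to 76081 CPM in MOD libraries. The highest stromal value was that of HI calf AP13745, which also had the highest miR-98 of all calves, and without that calf the log2 fold change of miR-98 was -0.072. With miR-486 as a covariate, 0 of 9 members passed FDR < 0.1, against 11 of all 419 miRNAs, and no fit used miR-451 or miR-144.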

How the data were processed

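Small RNA libraries (Illumina TruSeq) were made from anterior pituitary RNA of 30 calves. Per the methods and processing notes, the authors checked reads with FastQC 0.11.8, trimmed with cutadapt (2.6 in the notes), kept lengths of 15 to 28, mapped them to ARS-UCD1.2 with miRDeep2 and Bowtie, and counted mature miRNAs of miRBase. The deposited signal values are TMM-normalized CPM (R 3.4 and edgeR 3.5 in the notes), with 1030 miRNAs of which 190 are at 0 throughout. Dividing by the value of 1 read returned whole reads for at least 94.7% of values checked in each library (tolerance 0.01 read, values up to 1000 reads). Recovered reads were fractional for let-7a-5p in 17 of 30 libraries and for let-7f in 14 of 30. Whether reads on several hairpins were split or averaged is not given. How many reads each hairpin gave is therefore unknown. A count of 3 reads was 0.266 to 0.419 CPM, a floor that covers counting error only.

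From these values, log2(CPM + 1) of 419 miRNAs (99.99% of reads) was tested for diet with limma 3.58.1 in R 4.3.3, with Benjamini-Hochberg adjustment over all 419 and FDR < 0.1 as threshold. Fold changes on this scale understate those of low miRNAs. Recovered reads, rounded, were tested with edgeR 4.0.16 and DESeq2 1.42.0. Scripts were tested on simulated data. No pair of libraries was a copy of another among 435 pairs. Single ratios and correlations used permutation tests. Hairpin neighbours were read from RefSeq names of ARS-UCD2.0, a build other than that of the files. Members, marker lists and tests were chosen with earlier results of these data known. Named were all 9 members, the miRNAs of neighbouring hairpins and, per member, the miRNA of highest r.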

Additional observations from a re-analysis of the deposited data

How the results depend on the processing

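The count of members past FDR < 0.1 was 0 in limma and stayed at 0 under all alternatives but DESeq2 (1, let-7g), and over all miRNAs the count of 15 became 24 in DESeq2 and 0 in the 9 libraries with the highest label numbers alone, where fewer samples were fitted. Without 1 calf it was 14 to 20. Of the 15, 8 were higher in HI calves, against 16 of 18 with total reads. Over 16 alternatives, 120 of 144 fold changes of members kept their side of 0 and of the threshold, 23 changed sign and 1 passed the threshold. All were near 0. Sign changes (log2) were, with edgeR, 0.013 for let-7a-5p and 0.015 for let-7i. With total reads they were 0.061 for let-7a-5p, 0.027 for let-7d, 0.039 for let-7e, 0.0074 for let-7f, 0.060 for let-7i and 0.016 for miR-98. For let-7a-5p and let-7i they were 0.0086 and 0.0078 with the upper quartile, 0.019 and 0.018 with the family sum, 0.014 and 0.016 with label ranges as a block, 0.010 and 0.0083 with the set as a block, and 0.0019 and 0.0070 in the 21 libraries alone. With miR-486 as a covariate let-7a-5p was at 0.0018. In the 9 libraries alone they were 0.029 for let-7a-5p, 0.051 for let-7e, 0.036 for let-7f and 0.011 for let-7i. Leaving out 1 calf changed the sign in 28 of 270 values, with ranges of -0.024 to 0.013 for let-7a-5p, -0.020 to 0.015 for let-7i and -0.0038 to 0.061 for let-7c. The cause of these changes was not tested. The miR-125a settings and the ratio comparisons were chosen after seeing the data. Depth did not limit the members, each with at least 3533 reads per library, whereas the number of calves and the spread between them set the intervals. No paired analysis was possible because membership of the blocks (age, body weight, sire and farm) is not given in the labels used here, and replicates were numbered in accession order only.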
